A study of Mus musculus with 10 samples.

Results

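The 10 genes described here encode transcription factors of limb bud mesenchyme: Prrx1, Prrx2, Twist1, Twist2, Lhx2, Lhx9, Msx1, Msx2, Alx4 and Meox2. They were chosen by name as factors of the tissue in which the Cre driver of the study is active, and every probe set annotated to exactly 1 of these symbols was taken. That gave 21 probe sets of 45037 on the array that are not controls, with 6 for Prrx1, 4 for Lhx9, 2 each for Msx1, Msx2 and Meox2, and 1 each for the other 5 genes. The signals came from 10 Affymetrix arrays of RNA from limb buds cut off mouse embryos, 5 labelled Dicer mutant and 5 labelled wild type, each group numbered 1 to 5. The embryos came from parents with floxed Dicer alleles, homozygous in one parent and heterozygous beside the prxcre driver in the other. The mutant limb buds therefore lose Dicer where prxcre is active, which for this driver is the limb bud mesenchyme. Ectoderm, muscle precursors, vessels, nerves and blood cells of the same buds keep it. Embryos were genotyped, heterozygous ones included, and the sources used here do not say whether any of these stand among the arrays labelled wild type. Embryonic age, the strain, fore- or hindlimb origin and any pooling of embryos are likewise not given, so the p-values below measure the spread between these samples, which may be technical.

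Dicer cuts hairpin precursors into mature microRNAs, which lower the stability and translation of their target messages. Limb mesenchyme comes from the lateral plate, grows out under signals from the overlying apical ectodermal ridge, and forms the cartilage, tendon and connective tissue of the limb. The transcription factors described here mark that mesenchyme and take part in its outgrowth and patterning. The prxcre driver itself uses regulatory sequence of Prrx1.

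The targeted gene has to be given first, since it bears on the labels. At Dicer1 probe set 1427941_at the signals were 226, 360, 221, 215 and 205 in Dicer mutant 1 to 5, against 425, 233, 372, 390 and 706 in wild type 1 to 5. The library labelled Dicer mutant 2 thus read like the wild type arrays and the library labelled wild type 2 like the mutant arrays. Directions below follow the labels, and each difference is given with all 10 arrays and with the 8 arrays left without number 2. No p-value of the 8 arrays is corrected for that choice, which was made with earlier results of these data known. The arrays were already on a common scale, with median signals of 145.9 to 152.8, and their number limits the precision.

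Stretches upstream of the transcription start of 4 genes are shown, picked by the signals described below. Meox2 had the largest difference between the groups among the 18 tested probe sets of the genes described here, in the 8 arrays. Prrx2, Msx1 and Msx2 followed the array number in both groups, as did others not shown, such as Lhx2. Each stretch is the 250 bases before the start in RefSeq on build GRCm38.p6, read 5′ to 3′ on the gene's strand. They lie at chr12:37108290-37108539 (plus strand, Meox2), chr2:30845117-30845366 (plus, Prrx2), chr5:37824586-37824835 (minus, Msx1) and chr13:53472781-53473030 (minus, Msx2). Capitals mark letters that match, on either strand, the TATA box (TATAAA), the CCAAT box, the GC box (GGGCGG), the E-box that Twist and its partners bind (CANNTG) or a core bound by many homeodomains (TAATTA).
Meox2: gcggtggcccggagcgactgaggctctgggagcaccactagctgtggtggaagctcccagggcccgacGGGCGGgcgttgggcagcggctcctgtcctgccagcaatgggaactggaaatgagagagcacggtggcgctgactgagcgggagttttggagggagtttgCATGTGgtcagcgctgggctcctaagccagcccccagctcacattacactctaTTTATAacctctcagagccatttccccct
Prrx2: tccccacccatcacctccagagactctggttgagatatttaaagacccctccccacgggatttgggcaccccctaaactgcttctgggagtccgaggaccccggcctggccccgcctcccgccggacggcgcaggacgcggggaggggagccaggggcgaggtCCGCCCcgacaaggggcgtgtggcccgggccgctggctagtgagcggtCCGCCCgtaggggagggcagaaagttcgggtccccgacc
Msx1: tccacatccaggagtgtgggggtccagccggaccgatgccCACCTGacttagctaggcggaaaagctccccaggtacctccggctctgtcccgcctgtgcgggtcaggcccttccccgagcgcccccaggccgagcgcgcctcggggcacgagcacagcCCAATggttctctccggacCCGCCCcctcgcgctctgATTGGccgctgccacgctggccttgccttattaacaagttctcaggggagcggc
Msx2: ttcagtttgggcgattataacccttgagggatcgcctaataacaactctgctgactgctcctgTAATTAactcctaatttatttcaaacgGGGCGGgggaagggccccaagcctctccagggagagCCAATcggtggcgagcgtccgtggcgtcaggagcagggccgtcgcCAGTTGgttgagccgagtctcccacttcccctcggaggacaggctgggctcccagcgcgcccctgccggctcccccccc
No marked motifs overlap. GGGCGG occurs in all 4 windows shown, in 7 of the 10 windows of these genes, and in 32.7% of the 32841 windows of this length in the RefSeq table. The 4 were picked by their signals, so no enrichment is read from them. CCAAT has 2 matches upstream of Msx1 and 1 upstream of Msx2, against 33.9% of all windows with at least 1 match. TAATTA is seen in the Msx2 window, as in 4.84% of all windows, and the TATA box in the Meox2 window, as in 12.4%. CANNTG is in 66.2% of all windows, and here in those of Meox2, Msx1 and Msx2. These are matches of letters and not measured binding sites. The RefSeq table matched 9 of the 10 genes, all but Alx4, with 10 windows. Of these windows 5 hold CCAAT, 4 CANNTG, 2 TAATTA and 2 the TATA box.

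Across the limb bud mesenchyme factors, the difference between Dicer mutant and wild type limb buds was small. Meox2 stood 1.33-fold lower in the mutants in the 8-array comparison, with no overlap between the groups, and its limma adjusted p of 0.0758 missed the threshold. With the array number as a block 1 of its 2 probe sets passed. No other gene passed in either comparison. Of the 21 probe sets, 18 passed the filter on dim signals and were tested by limma. The 3 others were the only Alx4 probe set, Prrx1 1458004_at and Msx2 1438351_at. With all 10 arrays as labelled, 0 of 18 had a Benjamini-Hochberg adjusted p below 0.05, against 0% of all 22519 tested probe sets, and 1 of 18 had an unadjusted p below 0.05, against 2.81% of all. In the 8 arrays, limma called 0 of 18, against 1.68% of all tested probe sets, and 3 of 18 had an unadjusted p below 0.05, against 12.7%. With the array number as a block the 8 arrays gave 1 of 18, which was lower in the mutants, against 5.41% of all called and 3.01% called as lower. The median difference of the 18 in the 8 arrays was -0.086 on the log2 scale, against -0.0064 over all tested probe sets. Of the 18, 15 were lower and 3 higher in the mutants there, against 52.3% lower of all tested probe sets. Several of the 18 belong to the same gene and are not independent, and this share was not tested. The called share, 1 of 18 with the block, is close to the background.

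**Figure D1:**
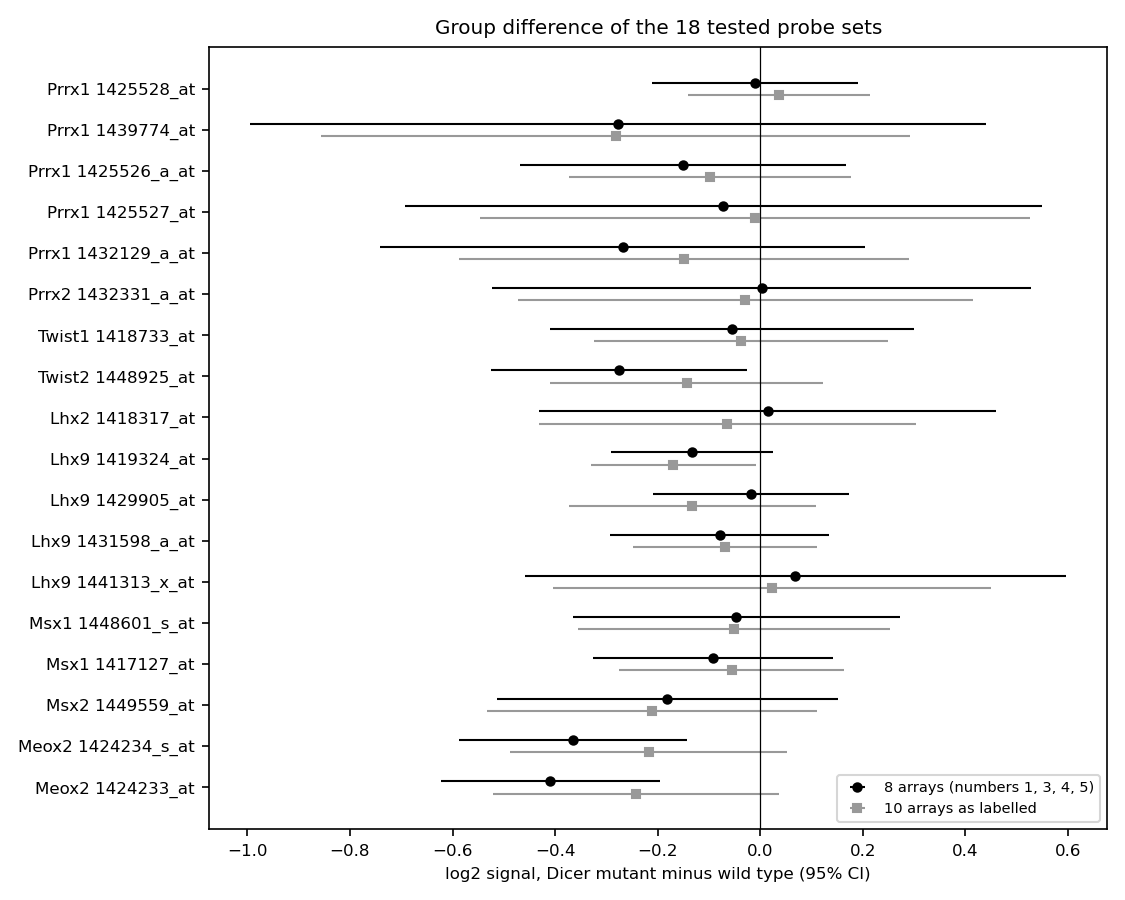
Difference in log2 signal between Dicer mutant and wild type limb buds (horizontal axis) for the 18 tested probe sets, with 95% confidence intervals from limma, in 8 arrays without number 2 (black circles) and in all 10 arrays as labelled (grey squares). The intervals of both Meox2 probe sets and of Twist2 lie below 0 in the 8 arrays, unadjusted for the number of probe sets tested.

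Meox2 encodes a mesenchyme homeodomain protein that is needed for normal limb muscle in mice and is made in both connective tissue and muscle precursors. Probe set 1424233_at read 1067, 1567, 1001, 1276 and 1227 in Dicer mutant 1 to 5, against 1391, 1166, 1608, 1552 and 1500 in wild type 1 to 5. Without number 2 every mutant array was below every wild type array. The library labelled Dicer mutant 2 had the second highest signal of all 10, and the library labelled wild type 2 the lowest of its group. Probe set 1424234_s_at, whose suffix says that its probes match more than 1 transcript, read 1101, 1628, 996, 1342 and 1242 in the mutant arrays and 1405, 1259, 1544, 1535 and 1509 in the wild type arrays. Without number 2 the groups again did not overlap, and the annotation gives both Meox2 probe sets the same source sequence, so they are not separate evidence.

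In the 8 arrays Meox2 averaged 1143 ± 130.2 in the Dicer mutant and 1513 ± 92.5 in the wild type arrays at 1424233_at (SD, n = 4 each), a 1.33-fold lower level in the mutants. The log2 difference was -0.41 (SE 0.095, 95% CI -0.62 to -0.20; limma adjusted p = 0.0758), and by exact permutation the two-sided p was 0.0286, the smallest that 4 against 4 arrays allow. With the array number as a block the difference was the same with an SE of 0.080, and the limma adjusted p of 0.0374 passed the threshold. The other probe set had -0.36 (SE 0.099; limma adjusted p = 0.126, and 0.0505 with the block). Within single numbers, 1424233_at differed by -0.38, -0.68, -0.28 and -0.29 for numbers 1, 3, 4 and 5, and by 0.43 for number 2. With all 10 arrays as labelled the differences were -0.24 (SE 0.13; limma adjusted p = 1.00) and -0.22 (SE 0.12; limma adjusted p = 1.00). Groups that do not overlap in the 8 arrays were seen for 2 of the 18 probe sets, both of Meox2 and lower in the mutants, against 9.09% of all tested probe sets and 4.97% with the mutants lower. In all 10 arrays they were seen for 0 of 18, against 0.4%. Markers of skeletal muscle precursors, which also make Meox2, had a summed signal of 1809 to 3707 in the mutant and 1848 to 4801 in the wild type arrays of the 8. Actc1 weighs heavily in that sum, at 762 to 2346 in the mutant and 761 to 3288 in the wild type arrays. None of the 5 tested among these 7 markers was called, the median difference of the 5 was -0.042, and their part in the Meox2 result was not tested. In whole limb buds fewer cells of a type and less RNA per cell cannot be told apart.

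**Figure D2:**
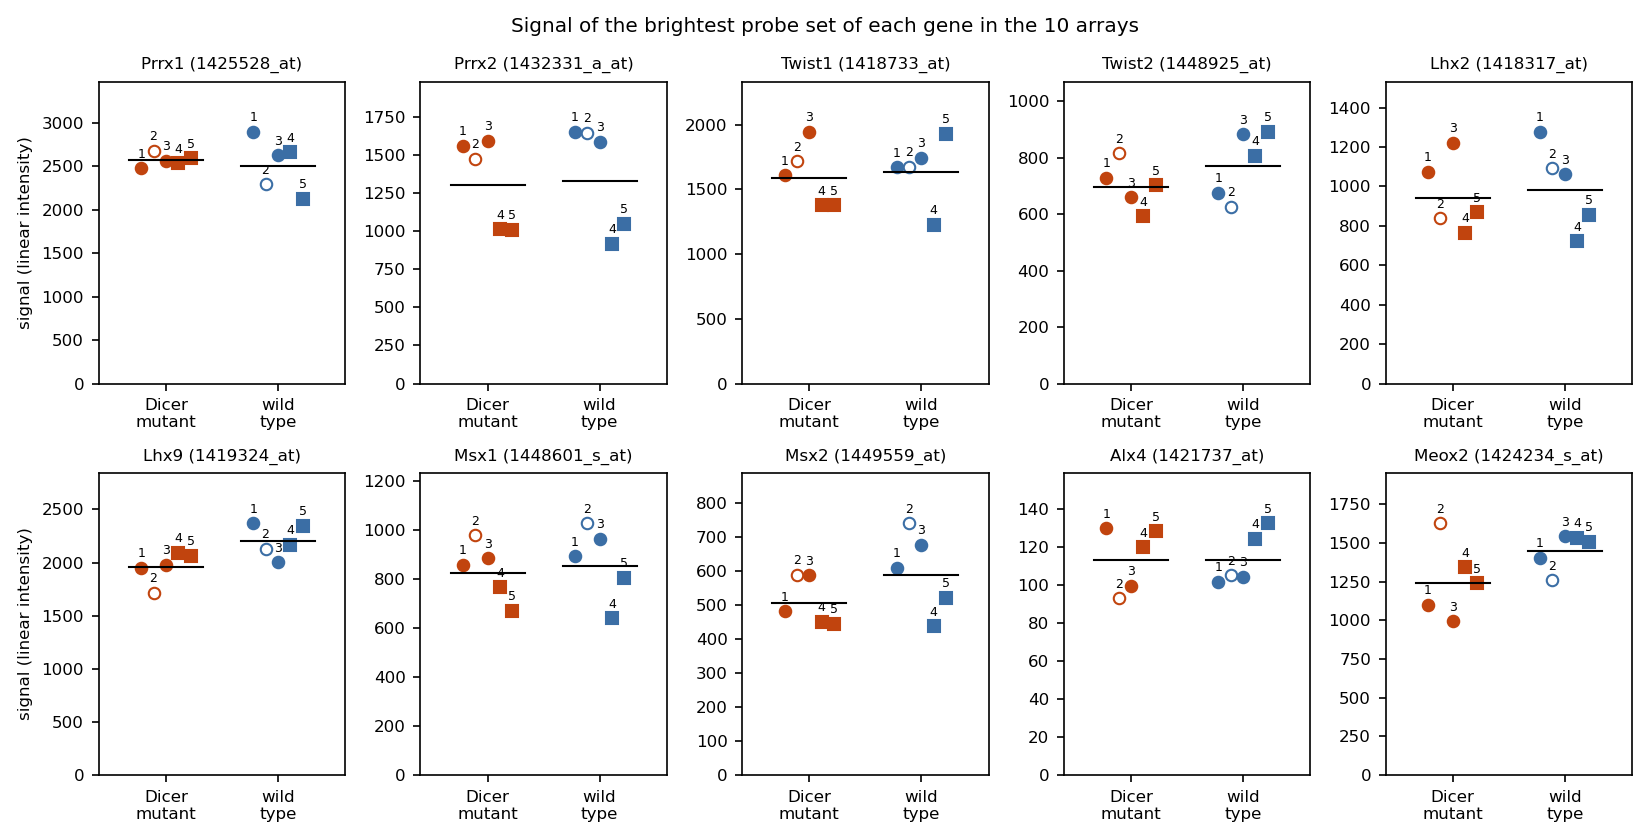
Signal on a linear scale (vertical axis) of the brightest probe set of each of the 10 genes in the Dicer mutant arrays (orange, left) and the wild type arrays (blue, right). Digits give the array number, open symbols are number 2, squares are numbers 4 and 5, and the bar is the geometric mean of 5 arrays. For Prrx2 the arrays numbered 4 and 5 lie at 917 to 1050 in both groups and the others at 1477 to 1653, and for Meox2 the 4 filled mutant points lie below the 4 filled wild type points.

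Twist1 and Twist2 encode related basic helix-loop-helix proteins that bind E-boxes with E-protein partners, and Twist1 is required for limb bud outgrowth in mice. Twist1 (1418733_at) read 1610, 1716, 1944, 1375 and 1376 in Dicer mutant 1 to 5, against 1671, 1676, 1745, 1226 and 1930 in wild type 1 to 5. The groups overlapped over nearly their whole range, and the lowest and the second highest of the 10 signals were both in wild type arrays. The log2 difference in the 8 arrays was -0.055 (SE 0.16, 95% CI -0.41 to 0.30; limma adjusted p = 0.958). Twist2 (1448925_at) read 729, 817, 660.5, 592 and 703 in the mutant arrays, against 677, 627, 883, 807 and 892 in the wild type arrays. In numbers 3, 4 and 5 the mutant array was the lower, with differences of -0.42, -0.45 and -0.34, while it was higher by 0.11 in number 1 and by 0.38 in number 2. The Twist2 difference was -0.28 in the 8 arrays (SE 0.11, 95% CI -0.52 to -0.026; limma adjusted p = 0.329; exact two-sided permutation p = 0.0857) and -0.14 in the 10 as labelled (SE 0.12; limma adjusted p = 1.00). Within numbers 1 and 3 it was -0.16 and within numbers 4 and 5 -0.39. It did not pass the test in either comparison, nor with the block (limma adjusted p = 0.179).

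Prrx1 and Prrx2, the paired-related homeodomain factors that together are needed for the limb skeleton in mice, had no probe set called in either comparison. The brightest Prrx1 probe set, 1425528_at, read 2479, 2682, 2568, 2535 and 2598 in Dicer mutant 1 to 5, against 2898, 2294, 2627, 2661 and 2128 in wild type 1 to 5. The mutant arrays lay inside the range of the wild type arrays. Its difference in the 8 arrays was -0.010 (SE 0.089, 95% CI -0.21 to 0.19; limma adjusted p = 0.988), and the SD of the log2 signals over 5 arrays was 0.042 in the mutant and 0.18 in the wild type arrays, where the medians over all tested probe sets were 0.146 and 0.148. Prrx2 (1432331_a_at) read 1560, 1477, 1594, 1013 and 1010 in the mutant arrays, against 1653, 1646, 1587, 917 and 1050 in the wild type arrays. Its values formed a high and a low set by array number, and not by group. The Prrx2 difference was 0.0028 in the 8 arrays (SE 0.23, 95% CI -0.52 to 0.53; limma adjusted p = 0.999). With the number as a block the interval shrank to -0.14 to 0.15 around the same value (limma adjusted p = 0.988).

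The other 4 tested Prrx1 probe sets did not follow the brightest. Probe set 1425527_at read 482, 647, 635.5, 1050 and 1103 in the mutant arrays, against 704, 551, 711, 1150 and 752 in the wild type arrays. Probe set 1432129_a_at, which matches several Prrx1 transcripts, read 299, 389, 334, 480 and 520 in the mutant arrays, against 409, 308.5, 385, 567.5 and 587 in the wild type arrays. At both of these probe sets every array numbered 4 or 5 was above every array numbered 1 to 3. The mutant array of 1432129_a_at was the lower in each of numbers 1, 3, 4 and 5 and the higher in number 2, with a difference of -0.27 in the 8 arrays (SE 0.21; limma adjusted p = 0.721, and 0.0792 with the block). Probe set 1425526_a_at read 928, 947, 826, 668 and 738 in the mutant arrays, against 1103, 876, 842, 826 and 747 in the wild type arrays, with every array numbered 4 or 5 below every array numbered 1 to 3, in one case by less than 1 unit. Its difference was -0.15 (SE 0.14; limma adjusted p = 0.794), and that of 1425527_at -0.072 (SE 0.28; limma adjusted p = 0.968). Probe set 1439774_at read 868, 768, 823, 1032 and 924 in the mutant arrays, against 835, 945, 797, 907 and 2436 in the wild type arrays. Wild type 5 stood alone there, and the difference of -0.28 (SE 0.32; limma adjusted p = 0.846) became 0.10 without it. The dim probe set 1458004_at lay between 82.5 and 99.9 in the mutant and between 81.4 and 102 in the wild type arrays. Which Prrx1 transcripts each probe set matches was not analysed here, so no Prrx1 isoform is assigned.

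**Figure D3:**
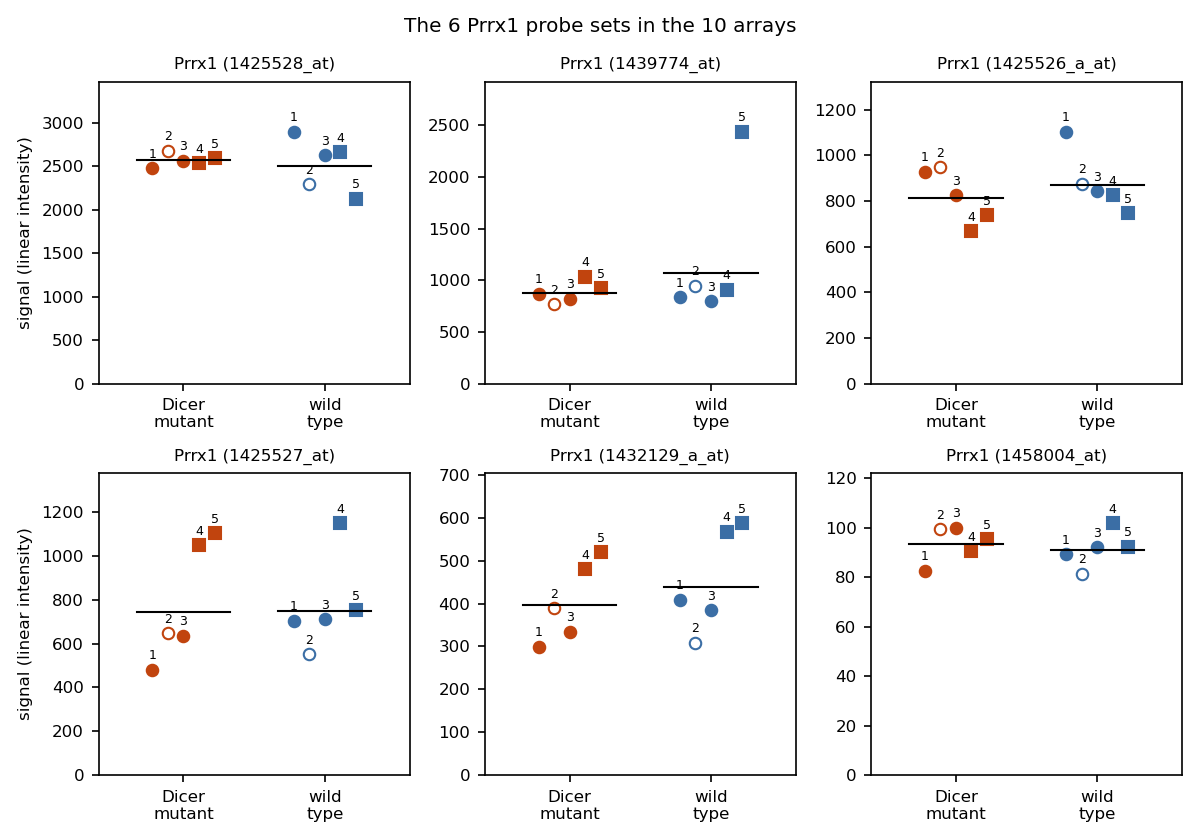
Signal on a linear scale (vertical axis) of the 6 Prrx1 probe sets in the Dicer mutant arrays (orange, left) and the wild type arrays (blue, right). Digits give the array number, open symbols are number 2, squares are numbers 4 and 5, and the bar is the geometric mean of 5 arrays. The squares lie above the circles at 1425527_at and 1432129_a_at and below them at 1425526_a_at, and wild type 5 stands alone at 1439774_at.

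Lhx2 and Lhx9 encode LIM homeodomain proteins of the mesenchyme under the apical ridge, which act there with overlapping roles. Lhx2 (1418317_at) read 1075, 838, 1221, 764 and 869 in Dicer mutant 1 to 5, against 1277, 1092, 1061, 721 and 857 in wild type 1 to 5. The groups overlapped over nearly their whole range, and the difference in the 8 arrays was 0.014 (SE 0.20, 95% CI -0.43 to 0.46; limma adjusted p = 0.995). Lhx9 at its brightest probe set, 1419324_at, read 1950, 1716, 1978, 2093.5 and 2064 in the mutant arrays, against 2369, 2132, 2002, 2170 and 2346 in the wild type arrays. Here the mutant array was the lower in all 5 numbers, including number 2, although the groups overlapped. The difference was -0.17 in the 10 arrays as labelled (SE 0.074, 95% CI -0.33 to -0.0083; limma adjusted p = 1.00; exact two-sided permutation p = 0.0317) and -0.13 in the 8 (SE 0.070; limma adjusted p = 0.50). This is the probe set with an unadjusted limma p below 0.05 in the 10 arrays, at 0.0409, and it did not pass after adjustment.

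The other Lhx9 probe sets gave no larger difference. Probe set 1429905_at read 1484, 1096, 1557, 1555 and 1551 in the mutant arrays, against 1653, 1652, 1507, 1354 and 1735 in the wild type arrays, with Dicer mutant 2 far below the other mutant arrays. Without number 2 its difference was -0.018 (SE 0.085; limma adjusted p = 0.977). Probe set 1431598_a_at lay between 415 and 510 in the mutant and between 466 and 557 in the wild type arrays, with a difference of -0.080 in the 8 arrays (SE 0.095; limma adjusted p = 0.856). Probe set 1441313_x_at, whose suffix marks probes that can bind other transcripts, lay between 424 and 530 in the mutant arrays and between 261 and 612 in the wild type arrays. Its lowest value was that of wild type 5, and its difference of 0.069 (SE 0.23; limma adjusted p = 0.966) became -0.20 without that array.

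Msx1 and Msx2 encode homeodomain repressors that BMP signals induce at the edges of the limb bud, Msx2 also in the apical ridge. Msx1 (1448601_s_at) read 859, 981, 887, 767 and 671 in Dicer mutant 1 to 5, against 895, 1029, 966, 640 and 807 in wild type 1 to 5. Its other probe set, 1417127_at, read 349, 417, 372, 346 and 314 in the mutant arrays, against 391, 391.5, 417, 310.3 and 359 in the wild type arrays. The lowest signal at both was wild type 4 and the lowest mutant signal Dicer mutant 5. The groups overlapped at both, and the differences in the 8 arrays were -0.047 (SE 0.14, 95% CI -0.36 to 0.27; limma adjusted p = 0.962) and -0.092 (SE 0.10; limma adjusted p = 0.842). Msx2 (1449559_at) read 483, 590, 589, 452 and 446 in the mutant arrays, against 611, 741, 678, 438 and 522 in the wild type arrays. The mutant array was lower in 4 of 5 numbers and higher in number 4. The difference was -0.18 in the 8 arrays (SE 0.15, 95% CI -0.51 to 0.15; limma adjusted p = 0.740, and 0.238 with the block) and -0.21 in the 10 as labelled (SE 0.15; limma adjusted p = 1.00). The other Msx2 probe set, 1438351_at, read 6.3 to 9.5 in the mutant and 3.8 to 12.6 in the wild type arrays, and no fold is given at such low signals. Alx4, the aristaless-like factor whose loss causes extra anterior digits in mice, was under the filter at its only probe set, 1421737_at. It read 130, 93.0, 99.5, 120 and 128 in the mutant arrays, against 102, 105, 104, 124 and 132 in the wild type arrays, and the deposited table has no detection calls to say how far these lie from background.

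**Figure D4:**
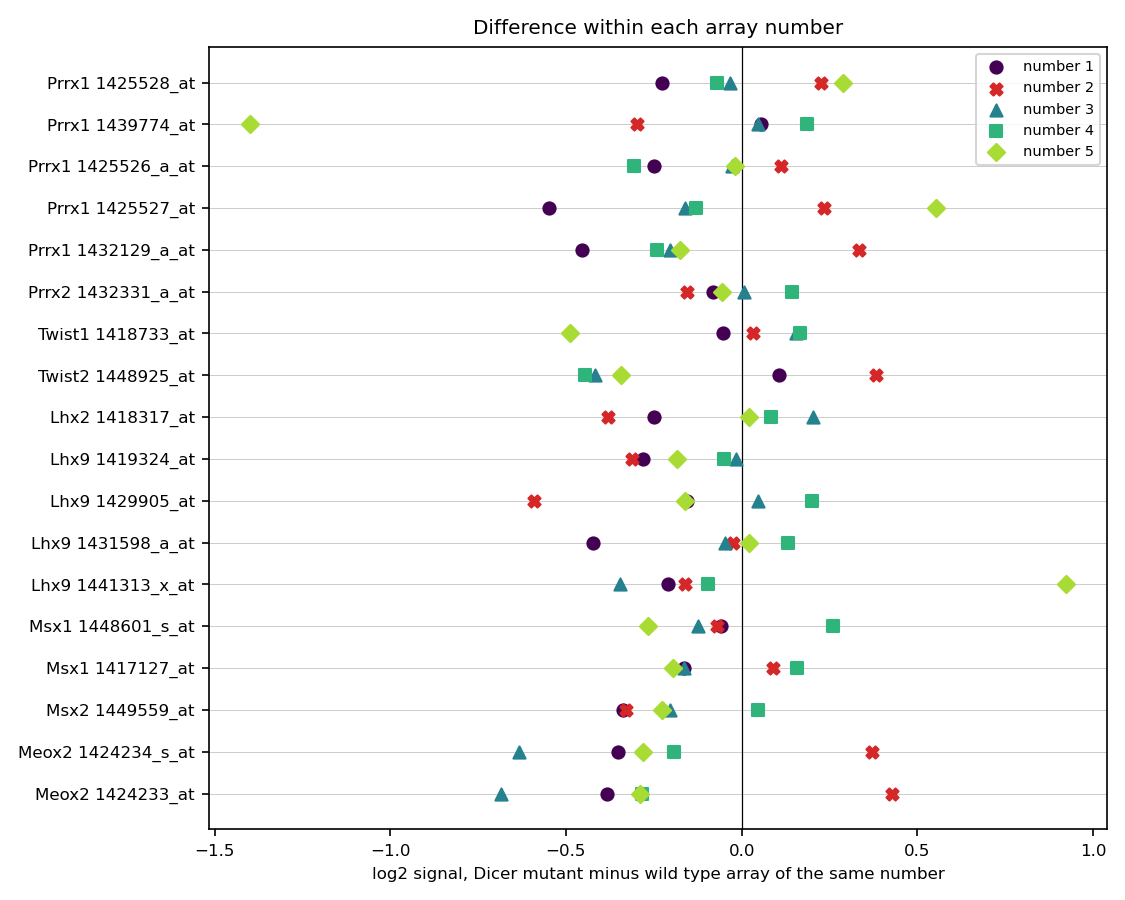
Difference in log2 signal between Dicer mutant and wild type within each array number (horizontal axis) for the 18 tested probe sets, with 1 symbol per array number. At Meox2 the 4 numbers other than 2 lie between -0.68 and -0.19 and number 2 (red cross) lies above 0, while at most other probe sets the numbers lie on both sides of 0.

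Pair by pair, 5 of the 18 tested probe sets had the same sign in all 4 numbers of the 8 arrays, against 30.2% of all tested probe sets. They were both Meox2 probe sets, Lhx9 1419324_at, and Prrx1 1425526_a_at and 1432129_a_at, all lower in the mutants. In number 2 the sign was opposite to that of the 8 arrays for 12 of the 18, against 67.8% of all tested probe sets. Both shares lie close to the background.

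For 13 of the 18 tested probe sets the signal differed more between array numbers 1 to 3 and 4 to 5, over 10 arrays, than between the groups in the 8 arrays. The share of all tested probe sets for which this holds was not counted. Arrays numbered 1 to 3 and arrays numbered 4 and 5 lay on opposite sides of the first principal component, which held 37.7% of the variance over all tested probe sets. No label says what a number marks, so the values are described here without a test. The absolute log2 difference between the 6 arrays numbered 1 to 3 and the 4 numbered 4 and 5 had a median of 0.27 over the 18 probe sets, against 0.13 over all tested ones. The absolute group difference in the 8 arrays had a median of 0.086 over the 18, against 0.083 over all. Over all tested probe sets, too, the median was thus larger by number than by group. In 5 of the 18 the arrays of the lower and the higher numbers did not overlap, against 20% of all tested probe sets. Of these, 3 were higher in numbers 1 to 3 and 2 lower, against 11.7% and 8.34% of all.

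Prrx2 was the clearest case, at 1477 to 1653 in numbers 1 to 3 and 917 to 1050 in numbers 4 and 5, a log2 difference of 0.67. That gap was 0.61 within the mutant arrays and 0.73 within the wild type arrays, so both groups showed it. Msx1 (1448601_s_at) was at 859 to 1029 in numbers 1 to 3 and at 640 to 807 in numbers 4 and 5, a difference of 0.38. Lhx2 had a difference of 0.44 and Msx2 (1449559_at) of 0.40 in the same direction, with ranges that overlapped. Twist1 had 0.25, with wild type 5 among the highest arrays. Both Prrx1 1425527_at and 1432129_a_at ran the other way. The first stood at 482 to 711 in numbers 1 to 3 and 752 to 1150 in numbers 4 and 5 (-0.70), and the other at 299 to 409 in numbers 1 to 3 and 480 to 587 in numbers 4 and 5 (-0.61). Prrx1 1439774_at had -0.52 with overlapping ranges, wild type 5 among the higher numbers. Prrx1 1425526_a_at went with Prrx2, at 826.1 to 1103 in numbers 1 to 3 and 668 to 825.9 in numbers 4 and 5. Meox2 was nearly level by number, with -0.11 at both probe sets, as was Twist2 with -0.026 and Lhx9 1419324_at with -0.10.

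**Figure D5:**
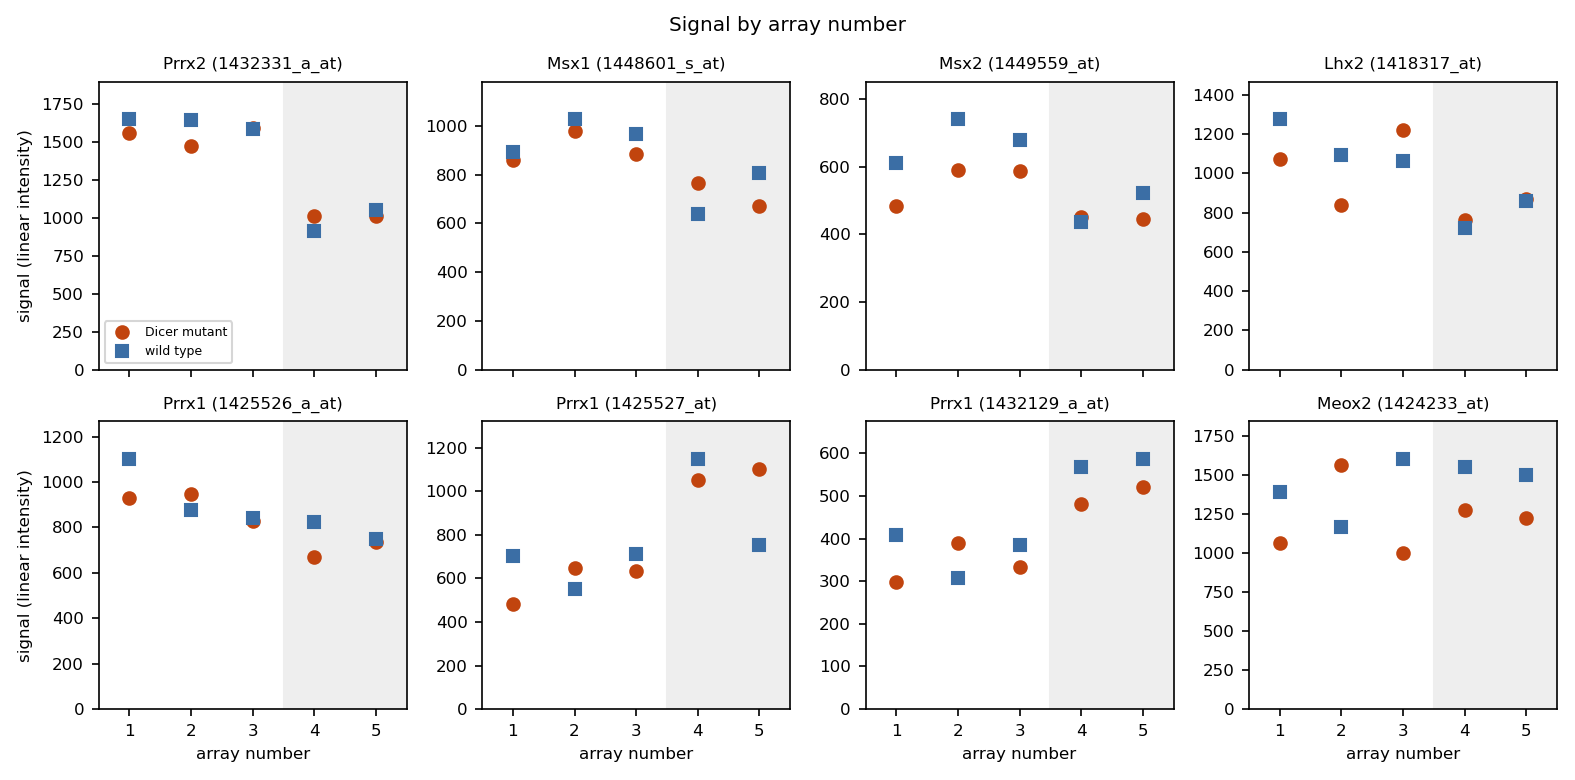
Signal on a linear scale (vertical axis) by array number (horizontal axis) for 8 probe sets, with Dicer mutant arrays as orange circles and wild type arrays as blue squares, and numbers 4 and 5 shaded. Prrx2 and Msx1 are lower and Prrx1 1425527_at and 1432129_a_at higher in the shaded arrays in both groups, while Meox2 is split by group in every number, with the order turned round in number 2.

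For each gene, by its brightest probe set, the genes with the most similar signal over the 10 arrays were found by Pearson correlation of log2 signals. These values describe 10 arrays that share the gap between numbers, and many genes follow that gap. They were picked as the highest among all tested probe sets with a single symbol outside these genes. How high such picked values run for other genes was not computed. Prrx2 was most like Ppp2r1a and Tmem119 (r = 0.995 and 0.991, n = 10 arrays). Lhx2 was most like Sec16a and Satb1 (0.984 and 0.977), Twist1 like Smurf1 and Chsy1 (0.975 and 0.974), and Msx1 like Vim and Maea (0.966 and 0.963). Msx2 was most like Rab11a and Trim29 (0.954 and 0.940), and Lhx9 like Fam168a and Serhl (0.954 and 0.934). For Meox2, which did not follow the numbers, the closest were Sh3kbp1 and Aldh6a1 (0.985 and 0.967). Twist2 was closest to Tia1 and Efnb2 (0.935 and 0.922), Prrx1 to Slc38a9 and Cenpn (0.921 and 0.906), and the dim Alx4 to Nup107 and Tgm2 (0.965 and 0.961).

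Partner proteins and relatives of these factors were also followed, as a list of 20 genes of which 18 were on the array under their own symbol and 16 were tested. None was called in either comparison, and the median log2 difference in the 8 arrays was -0.032, against -0.0064 over all tested probe sets. The 4 with the smallest p were all lower in the mutants without passing. Id2, an inhibitor that ties up the E-protein partners of Twist, lay at 1201 to 1360 in the mutant and 1596 to 2108 in the wild type arrays of the 8 (-0.49, SE 0.11; limma adjusted p = 0.0585). Id3, of the same family, had -0.35 (SE 0.10; limma adjusted p = 0.155). Lmo4, a LIM-only protein that competes for the cofactor of Lhx proteins, had -0.38 (SE 0.11; limma adjusted p = 0.172), and the homeobox gene Emx2 -0.62 (SE 0.21; limma adjusted p = 0.235). With the array number as a block limma called 4 of the 16, against 5.41% of all tested probe sets: Id2, Id3, Emx2 and Id1 (adjusted p = 0.0383, 0.0261, 0.0192 and 0.0426). Id1, at -0.23, was named after its values were seen. Emx2 was dim, with geometric means of 139 in the mutant and 171 in the wild type arrays of all 10. It thus passed the filter, at a signal of 151, only through the wild type group, and no support is drawn from its call. In the 8 arrays it lay at 94.0 to 148 in the mutant and 141 to 285 in the wild type arrays, with overlapping groups. Among those named here for their roles, after their values were seen, the E-protein genes Tcf3 and Tcf12 had differences of -0.042 and 0.026, and Hand2, another helix-loop-helix factor of limb mesenchyme, 0.12. The Lhx cofactor genes Ldb1 and Ldb2 had 0.16 and -0.18 (limma adjusted p = 0.914 and 0.707), and Ssbp2 and Ssbp3 had -0.17 and -0.013 (limma adjusted p = 0.381 and 0.992). Lmo2 and Lmo1, LIM-only genes like Lmo4, were higher in the mutants, at 0.48 and 0.13 (limma adjusted p = 0.352 and 0.756).

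A second list held 20 signals and targets tied to these factors in the limb bud, 18 of them on the array and 17 tested, with a median difference of -0.049 in the 8 arrays. One, Bmpr1b, was called as lower, against 0.75% of all tested probe sets called as lower, and 0 were called with all 10 arrays. Bmpr1b, a BMP receptor of digit cartilage, lay at 195 to 239 in the mutant and 288 to 339 in the wild type arrays of the 8 (-0.53, SE 0.088; limma adjusted p = 0.0260), and was called in 2 of 8 refits that each left out 1 array, those without Dicer mutant 4 or wild type 5. In the other 6 its adjusted p was 0.0584 to 0.090, with differences of -0.55 to -0.50. Bmp2, a ligand that induces Msx genes, had -0.39 (SE 0.11; limma adjusted p = 0.148, and 0.0348 with the block). The FGF receptor gene Fgfr2 had -0.28 (SE 0.10; limma adjusted p = 0.259), and Shh, the signal of the posterior limb bud, 0.82 (SE 0.39; limma adjusted p = 0.436), with mutant arrays from 237 to 393 and wild type arrays from 98.0 to 412. Without wild type 5, which held the highest of these, the Shh difference was 1.24 and passed (limma adjusted p = 0.0233). The other 13 tested genes of the list lay between -0.33 (the matrix gene Tnc) and 0.25 (the hedgehog receptor gene Ptch1), and none of them was called.

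All 8 limb bud markers, from Tbx5 and Tbx4 to Hoxd13 and Hoxa13, passed the filter on dim signals. So did 11601 of the 18193 genes of the series, so passing it is no check of the tissue label. Among tested markers in the 8 arrays, limma called 0 of 10 for surface ectoderm, 0 of 5 for muscle precursors, 0 of 6 for endothelium, 0 of 3 for white blood cells, 0 of 5 for red cells and 0 of 2 for nerve and Schwann cells. With the array number as a block 1 each was called among limb bud, ectoderm and white blood cell markers, against 5.41% of all tested probe sets. They were Tbx4 (0.58; limma adjusted p = 0.00705 with the block), Krt14 (-0.39; 0.0435) and Tyrobp (0.49; 0.0164). Tbx4 lay at 208 to 320 in the mutant and 137 to 205 in the wild type arrays of the 8, and was not called without the block (limma adjusted p = 0.157). Tbx5 had -0.21 with overlapping groups (limma adjusted p = 0.649), and Pitx1 of the same list had 0.0020 (limma adjusted p = 0.998). Of 5 tested cartilage markers 1 was called, Col11a1, which was lower (-0.58; limma adjusted p = 0.0314) and was called in 1 of 8 such refits, the one that dropped wild type 5. The other 7 gave adjusted p of 0.0520 to 0.105. The summed signal of the 8 cartilage markers on the array was 4479 to 6379 in the mutant and 5379 to 7303 in the wild type arrays of the 8, and that of the 10 ectoderm markers 3709 to 4108 in the mutant and 3686 to 4180 in the wild type arrays. The summed signals of the groups overlapped for both lists, and the part of cartilage markers in the Meox2 and Bmpr1b values was not tested.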

How the data were processed

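Biotin-labelled cRNA was hybridised to Affymetrix arrays, per the labels' protocols, and the authors deposited linear intensity values per probe set. GCOS 1.3 is listed in the submitters' processing notes, while the sources used here do not give the summarization model, the scaling target or detection calls. The 2% trimmed means of the arrays spread by 4.76%, and none was added because this was under 10%. Intensities below 1 were raised to 1 and taken to log2, and 64 control probe sets were dropped. Tests covered the 22519 of 45037 remaining probe sets whose mean over the 10 arrays was at or above the median probe set, a signal of 151. R 4.3.3 and limma 3.58.1 were used for the group comparison (lmFit and eBayes, with a trend on intensity), and p-values were adjusted by Benjamini-Hochberg over all tested probe sets, at a threshold of 0.05. The code was tested on simulated data. Genes were named through the platform annotation, and for a list gene the brightest of its tested probe sets was used, passing over those marked as shared or cross-hybridising where there was a choice.

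The members, gene lists, 8-array comparison and alternatives were chosen with earlier results of these data known. All member probe sets are described. Of each list, called members and up to 4 with the smallest p are named, with exceptions marked. As a check of pairing, each array's deviation from its group mean was correlated with that of its number partner. In the 8 arrays this gave 0.55, 0.55, 0.71 and 0.32 for numbers 1, 3, 4 and 5, which met the rule that every such value exceed 0.1. The fit with the number as a block is therefore given beside the main fit. Neither the main fit nor the exact permutation test takes account of the number. The highest values with another number were 0.54 for the arrays numbered 1 and 3 and 0.52 for those numbered 4 and 5, so for number 5 another number correlated better than its own. Those values exceed 0.1 too, so meeting the rule does not show that the numbers mark pairs. In all 10 arrays number 2 gave -0.18, so the rule was not met there. Alternatives were quantile normalization, median centring, offsets of 16 and 64, other filters, no trend, array weights, the block, subsets of numbers, and leaving out each array.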

Additional observations from a re-analysis of the deposited data

Results flagged for a closer look

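In 3 of 42 groups of 5 arrays (21 probe sets in both groups) a single array stood far from the others, its gap to the next array taking up most of the range of the group. Chance alone flags about 1 in 20 such groups. Prrx1 1439774_at read 2436 in wild type 5, where the other wild type arrays read 797 to 945. Lhx9 1429905_at read 1096 in Dicer mutant 2, where the other mutant arrays read 1484 to 1557. Lhx9 1441313_x_at read 261 in wild type 5, where the other wild type arrays read 483 to 612. Wild type 5 also had the highest Dicer1 signal, 706 at 1427941_at.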

How the results depend on the processing

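The count of called probe sets among the 18 tested was 0 in all 10 arrays under every alternative run. In the 8 arrays it was 0 except with array weights (1), with the replicate number as a block (1) and in numbers 1 and 3 alone (2), and it stayed at 0 when each array was left out. The calls were Meox2 1424233_at each time (-0.32 with array weights, adjusted p = 0.0354; -0.41 with the block, 0.0374; -0.53 in numbers 1 and 3, 0.0342), with 1424234_s_at added in numbers 1 and 3 (-0.49, 0.0357). Leaving out each array gave -0.47 to -0.35 for 1424233_at, with an adjusted p of 0.0783 to 0.221. Over all probe sets, 378 calls in the 8 arrays became 2612 with array weights, 1219 with the block, 812 in numbers 1 and 3, 0 in numbers 4 and 5, 745 without wild type 5 and 93 to 142 without any other single array. The block changed no call among the 18 probe sets beside Meox2 1424233_at, and no call in all 10 arrays.

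Signs turned only among differences that were never called, and the cause was not tested. With array weights the 8-array differences became 0.096 at Prrx1 1439774_at, 0.32 at 1425527_at and 0.10 at 1432129_a_at, -0.40 for Prrx2, -0.28 for Lhx2 and -0.16 at Lhx9 1441313_x_at. In numbers 1 and 3 they became 0.051 at Prrx1 1439774_at, -0.038 for Prrx2, 0.051 for Twist1, -0.023 for Lhx2 and -0.28 at Lhx9 1441313_x_at, and in numbers 1 to 3 as labelled 0.024 for Twist2. In numbers 4 and 5 they became 0.11 at Prrx1 1425528_at, 0.21 at 1425527_at, 0.019 at Lhx9 1429905_at and 0.076 at 1431598_a_at. Quantile normalization gave 0.016 at Prrx1 1425528_at and 0.016 at Lhx9 1429905_at. Leaving out each array gave -0.10 to 0.049 at Prrx1 1425528_at, -0.43 to 0.10 at 1439774_at, -0.24 to 0.15 at 1425527_at, -0.15 to 0.13 for Prrx2, -0.19 to 0.029 for Twist1, -0.12 to 0.15 for Lhx2, -0.084 to 0.035 at Lhx9 1429905_at, -0.20 to 0.21 at 1441313_x_at and -0.16 to 0.034 at Msx1 1448601_s_at. Without detection calls, the distance of dim probe sets such as Alx4 from background is unknown.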
